A study of Mus musculus with 6 samples.

Results

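The insulin-like growth factor (IGF) system was described in the kidney of a pair of inbred laboratory mouse strains, C57BL/6 (B6) and BALB/c. The 10 genes described are the ligands Igf1 and Igf2, the receptors Igf1r and Igf2r, and the binding protein genes Igfbp2 to Igfbp7. They were picked by symbol from the 23282 rows of each deposited table, and all 10 have a row. They were proposed with the difference between the strains already known, so the values that chose them are those of this same contrast. Their strain differences are therefore given as a description, without p-values, and nothing rests on how many of them differed. The kidneys came from 3 B6 and 3 BALB/c mice, with 1 library each of the whole organ. The labels name no treatment and no genetic change, and no source used here gives age or sex. Libraries came from total RNA and a QuantSeq kit (Lexogen), whose reads start from the poly(A) tail and so cover chiefly 3′ ends.

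IGF1 and IGF2 are small secreted proteins related to insulin, and both signal through the receptor tyrosine kinase encoded by Igf1r. The protein of Igf2r, also the mannose 6-phosphate receptor, takes up IGF2 and carries it to lysosomes, so it removes the ligand. IGF binding proteins hold the ligands in blood and tissue, extend their life and either limit or help their access to the receptor, depending on the protein and the proteases around it. In the kidney, IGF1 raises renal blood flow and glomerular filtration. Igf2 is imprinted, expressed in most tissues from the paternal copy, and in rodents its expression falls steeply after birth. Igf2r is imprinted in the mouse in the opposite way, expressed from the maternal copy.

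Libraries held between 8311309 and 10416620 reads, recovered from the deposited values, and levels are in CPM (reads scaled to a common library total, a normalised read count). One read was worth between 0.0968 and 0.1179 CPM. Ribosomal RNA precursor (Rn45s) took between 12.7% and 15.6% of the reads. Xist, transcribed from the inactive X of females, had between 1035 and 1963 reads, the Y-linked gene Ddx3y had at most 8 reads in a library, and Uty and Eif2s3y, also Y-linked, had 0 in all 6. Tubule markers were abundant in all libraries, with a summed level of 10 proximal tubule genes between 16344 and 22239 CPM. Differences are given as log2 folds of CPM + 1, with BALB/c in the numerator, from limma fitted to all 13317 genes that reached a log2 value of at least 1 in at least 3 libraries. A gene is said to have been called where its Benjamini-Hochberg adjusted p over all genes tested was under 0.05. Of the 10 members, 9 passed the filter, and the other, Igfbp6, lay below it.

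Of the 9 members past the filter, 3 were called, Igf2, Igf2r and Igfbp4, and all were lower in BALB/c. Over all genes tested, 9.09% were called, 4.93% lower and 4.17% higher in BALB/c. The ranges of the strains did not overlap in 4 members, these 3 and Igfbp5, which was higher in BALB/c. Over all genes 25.4% had strain ranges that did not overlap. The median log2 fold of the 9 members was -0.29, beside 0.00 over all genes tested. Since the strain contrast was known when the members were proposed, nothing is read from these counts. The same holds for whether the call of a member stayed or ended under the alternatives given below.

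**Figure D1:**
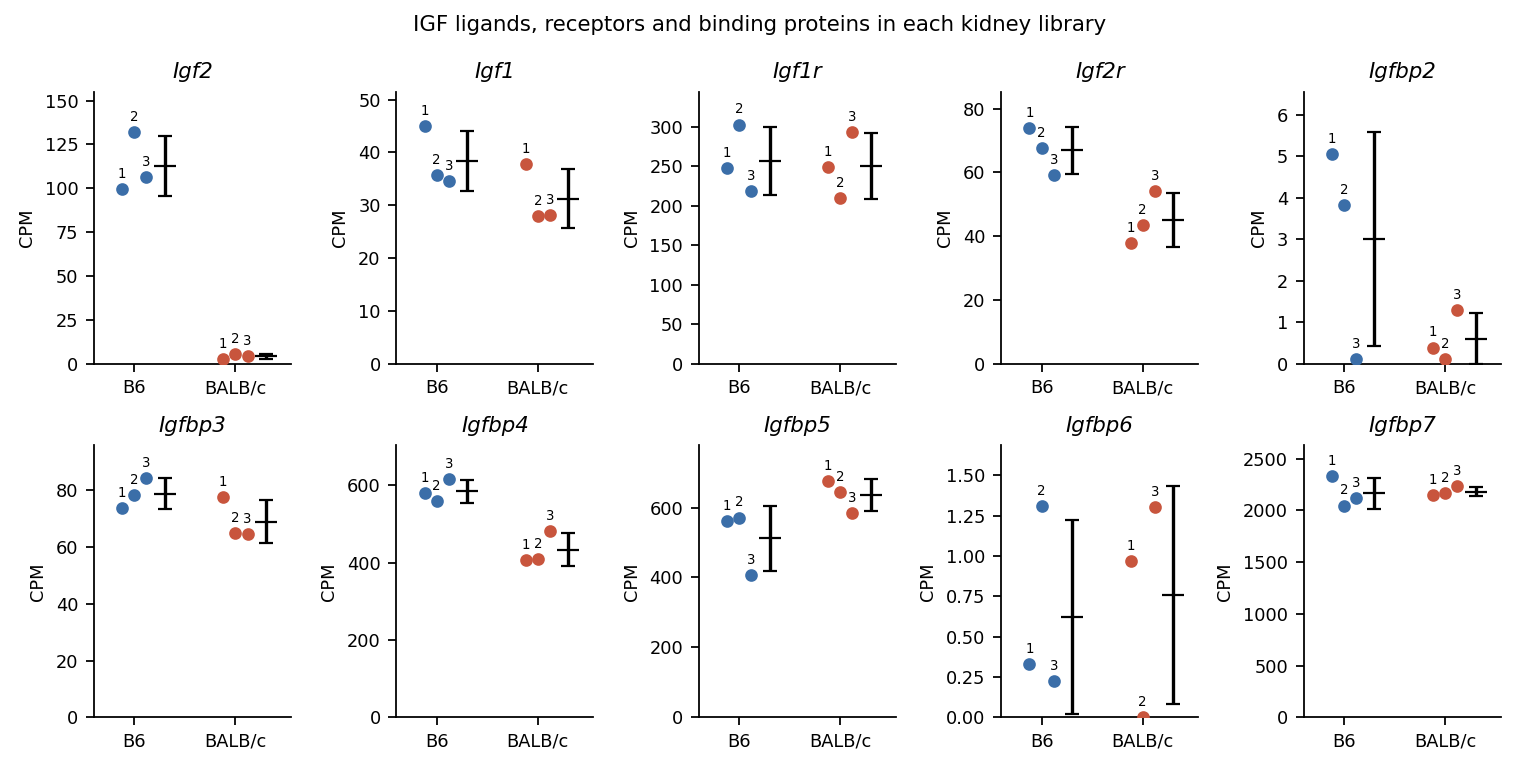
Level of each of the 10 genes in every library, in CPM on linear axes that start at 0; points are libraries numbered by replicate, and the bar beside them is the mean ± SD of 3 libraries. Igf2 lies between 99.6 and 132 CPM in B6 and between 2.42 and 5.43 CPM in BALB/c, whereas Igf1r and Igfbp7 overlap between the strains.

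Igf2, the ligand best known from fetal growth, differed between the strains more than any other member. It stood at 99.6, 132 and 106 CPM in B6 replicates 1, 2 and 3, against 2.42, 5.43 and 4.51 CPM in BALB/c replicates 1, 2 and 3. Every B6 library lay far above every BALB/c library. The values rest on 905, 1309 and 949 reads in B6 and on 25, 46 and 45 reads in BALB/c. The B6 mean was 112.7 ± 17.1 CPM and the BALB/c mean 4.12 ± 1.54 CPM (SD, n = 3 each), so the B6 mean was 27.4 times that of BALB/c. The log2 fold was -4.51 ± 0.21 (SE), between -4.70 and -4.25 when any 1 library was left out. With a pseudocount of 5 CPM in place of 1 the fold was -3.69, and with 0.25 CPM it was -4.75. Fitted by limma-voom on recovered reads it was -4.84.

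Igf2 (chromosome 7, 142650766 to 142666816, minus strand, GRCm38) has several annotated transcription starts, and reads from the 3′ end cannot tell which of them a transcript used. RefSeq lists 4 starts. The 250 bases upstream of the first and of the last are shown as examples of annotated promoter windows of the member that differed most. Use of any of the starts in these kidneys was not tested. The windows of the other starts reach into annotated UTRs and are described without their letters. Capitals mark matches on either strand to the GC box GGGCGG, bound by Sp1-type factors, to the CCAAT box CCAAT and to the TATA box TATAAA. The windows run 5′ to 3′ along the gene and end just before the start (RefSeq, GRCm38.p6).
Igf2, farthest upstream start (chr7:142666817-142667066, minus strand): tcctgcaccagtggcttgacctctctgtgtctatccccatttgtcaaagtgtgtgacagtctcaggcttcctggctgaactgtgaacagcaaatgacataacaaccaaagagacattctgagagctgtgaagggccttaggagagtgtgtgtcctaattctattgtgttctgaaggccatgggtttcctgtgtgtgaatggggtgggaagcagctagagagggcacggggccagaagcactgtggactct
Igf2, the start nearest the coding exons (chr7:142657497-142657746, minus strand): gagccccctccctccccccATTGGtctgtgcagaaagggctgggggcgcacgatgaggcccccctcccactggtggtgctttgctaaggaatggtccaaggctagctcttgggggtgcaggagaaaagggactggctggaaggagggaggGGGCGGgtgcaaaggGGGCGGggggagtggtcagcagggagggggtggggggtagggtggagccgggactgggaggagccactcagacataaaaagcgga
The windows of the 4 starts differ in base composition, with 1, 10, 22 and 6 CpG dinucleotides in this order. The third window holds 1 GC box match. The fourth holds 2 GC box matches and 1 CCAAT match. None of the 4 windows holds TATAAA. Among the upstream windows of all 32851 RefSeq starts, 32.7% hold a GC box match, 33.8% a CCAAT match and 12.4% a TATAAA match. The median window has 6 CpG dinucleotides. A match describes letters in a window and is not shown to be a site in use.

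Exons of Igf2 overlap those of the antisense gene Igf2os and of Gm49394, a gene model on the same strand that shares the whole 3′ end of Igf2. Gm49394 has no row of its own under this symbol, so the Igf2 row may include its transcripts. Igf2os, on the opposite strand, had 17, 30 and 27 reads in B6 replicates 1, 2 and 3 and 0 reads in each BALB/c library. Against a floor of 3 reads per library it was at least 8.39-fold lower in BALB/c. It passed the filter only through the B6 libraries, where it was high, so nothing is read from its call by limma. Whether strand was used in counting is not given in the sources used here, so reads of Igf2os and Igf2 cannot be told apart where their exons overlap. Igf2os reads came to 2.34% of the Igf2 reads of the B6 libraries. The same share of the 116 Igf2 reads of the BALB/c libraries would be 2.71 reads.

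Igf1, the ligand made under growth hormone control in liver and also within the kidney, overlapped between the strains. It had 45.0, 35.7 and 34.5 CPM in B6 replicates 1, 2 and 3 and 37.7, 28.0 and 28.1 CPM in the BALB/c replicates. In each strain replicate 1 was the highest, and BALB/c replicate 1 lay above the lower pair of B6 libraries. The B6 mean was 38.4 ± 5.75 CPM and the BALB/c mean 31.3 ± 5.62 CPM (SD, n = 3 each). On the log2 scale Igf1 differed by -0.29 ± 0.17 (SE) and was not called. The ligand genes thus stood far apart in their log2 folds, -4.51 for Igf2 beside -0.29 for Igf1. Igf1 lies on chromosome 10, 87858265 to 87937042, and no exon of another gene overlaps it.

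Igf1r, the signalling receptor of both ligands, overlapped widely between the strains. The 3 B6 libraries had 248, 303 and 219 CPM, and the 3 BALB/c libraries had 249, 210.0 and 293 CPM. The highest and the lowest of the 6 values came from different strains, and the spread within a strain was 1.39-fold in B6 and 1.40-fold in BALB/c. The log2 fold was -0.03 ± 0.12 (SE), and its sign turned when a single library was left out, with values between -0.15 and 0.09. In B6, replicate 3 was lowest for Igf1r and also had the lowest summed level of 8 collecting duct markers, 415.5 CPM beside 535.1 and 816.9 CPM in replicates 1 and 2. The part of this in the spread of Igf1r was not tested.

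Igf2r, the receptor that clears IGF2, was lower in BALB/c. B6 replicates 1, 2 and 3 had 74.0, 67.5 and 59.2 CPM, and BALB/c replicates 1, 2 and 3 had 37.7, 43.4 and 54.3 CPM. The strains did not overlap, but the lowest B6 library and the highest BALB/c library lay close together. Means were 66.9 ± 7.39 CPM for B6 and 45.2 ± 8.41 CPM for BALB/c (SD, n = 3 each). The BALB/c mean was 0.675 of the B6 mean, and the log2 fold was -0.57 ± 0.15 (SE). Its call ended when B6 replicate 1 or BALB/c replicate 1 was left out, where the fold was -0.49 and -0.45. It also ended with no filter on low values and with a variance prior that did not follow the level. Igf2r lies on chromosome 17, 12682406 to 12769664, on the minus strand, and its row carried 1870 reads over the B6 libraries and 1300 over the BALB/c libraries. Both the ligand Igf2 and the receptor that removes it were thus lower in BALB/c, by 4.51 and 0.57 on the log2 scale.

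**Figure D2:**
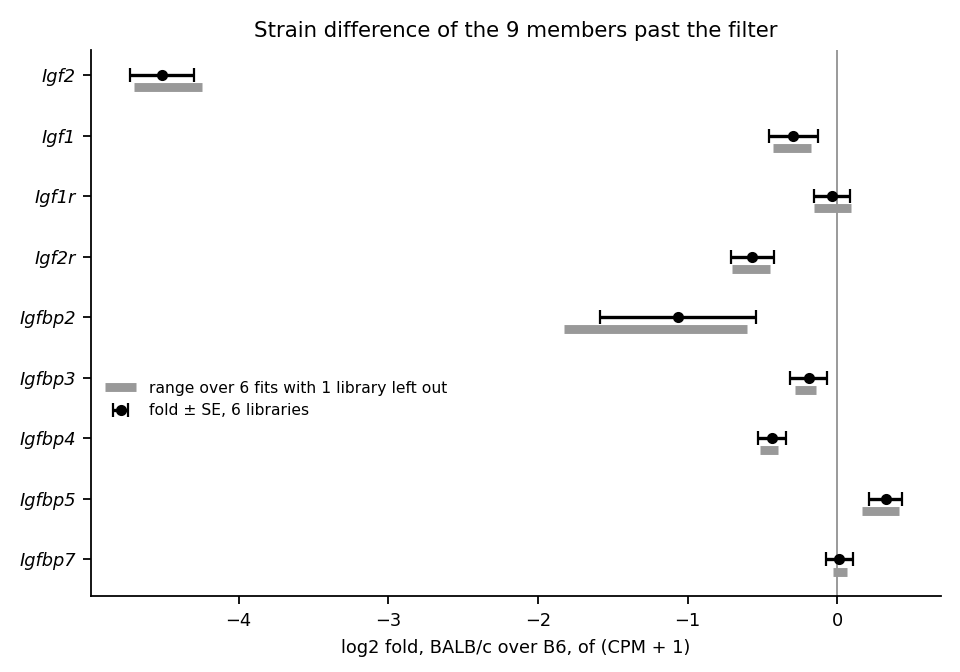
Log2 fold of BALB/c over B6 (horizontal axis, CPM + 1) for the 9 genes past the filter; points and thin bars are the fold ± SE over 6 libraries, and grey bars span the 6 fits with 1 library left out. Igf2 stands at -4.51, Igfbp2 has the longest grey bar, from -1.82 to -0.60, and the other 7 genes lie between -0.57 and 0.32.

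The 6 binding protein genes fell into no common direction. Igfbp4 was lower in BALB/c and called, Igfbp5 was higher without being called, Igfbp3 and Igfbp7 overlapped between the strains, and Igfbp2 and Igfbp6 rested on few reads.

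Igfbp4, whose protein mostly restrains IGF action until the protease PAPP-A cleaves it, had 579, 559 and 617 CPM in the 3 B6 libraries. The 3 BALB/c libraries had 408, 411 and 482 CPM. All B6 values lay above all BALB/c values, and the scatter within a strain was small, with a coefficient of variation of 5.06% in B6 and 9.76% in BALB/c. The means were 585.2 ± 29.6 and 433.6 ± 42.3 CPM (SD, n = 3 each), a ratio of BALB/c to B6 of 0.741. This is a log2 fold of -0.44 ± 0.09 (SE). With 1 library left out the fold was between -0.51 and -0.39. The call of Igfbp4 ended with a variance prior that did not follow the level. Igfbp4 lies on chromosome 11, 99041244 to 99054392, plus strand. Of the 50-base words taken from the last 300 bases of its transcript, 25.5% occur in other transcripts, of 132 genes, so some of its reads may map to several places.

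The promoter windows of Igf2r and Igfbp4, the other members called lower, are set beside those of Igf2 for comparison, with the same marks.
Igf2r (chr17:12769707-12769956, minus strand): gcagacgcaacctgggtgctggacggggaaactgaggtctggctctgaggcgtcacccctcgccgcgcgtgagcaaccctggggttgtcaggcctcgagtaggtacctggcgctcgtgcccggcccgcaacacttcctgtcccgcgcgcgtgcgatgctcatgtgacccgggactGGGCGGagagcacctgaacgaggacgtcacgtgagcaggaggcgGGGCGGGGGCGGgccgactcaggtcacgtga
Igfbp4 (chr11:99040994-99041243, plus strand): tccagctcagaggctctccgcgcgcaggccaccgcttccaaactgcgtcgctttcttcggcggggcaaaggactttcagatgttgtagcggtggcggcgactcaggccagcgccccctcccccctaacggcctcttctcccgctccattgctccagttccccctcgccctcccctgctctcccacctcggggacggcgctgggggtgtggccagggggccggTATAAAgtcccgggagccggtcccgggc
Both are rich in CpG, with 27 and 22 dinucleotides. Igf2r holds 3 GC box matches and no CCAAT or TATAAA match. Igfbp4 holds 1 TATAAA match, which begins 28 bases before the start, and no GC box match. None of the 3 motifs was found in windows of all 3 genes called lower.

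Igfbp5, a binding protein that also attaches to extracellular matrix, had 560, 571 and 406 CPM in B6 replicates 1, 2 and 3. In BALB/c replicates 1, 2 and 3 it had 676, 644 and 585 CPM. The strains did not overlap, yet B6 replicate 2 and BALB/c replicate 3 were close, and B6 replicate 3 stood below the other B6 libraries. The means were 512.6 ± 92.7 and 635.0 ± 46.1 CPM (SD, n = 3 each). Its log2 fold, 0.32 ± 0.11 (SE), was not called. Without B6 replicate 3 the fold was 0.16, and without B6 replicate 2 it was 0.41 and was called. B6 replicate 3 is the library with the lowest collecting duct markers given above. It also had the highest proximal tubule sum, 22239 CPM, and the lowest loop of Henle sum, 3494 CPM, of all libraries. In BALB/c, replicate 3 had the lowest Igfbp5 but the highest collecting duct sum, 549.1 CPM. The part of cell makeup in Igfbp5 was not tested.

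Igfbp3, the main carrier of IGFs in blood together with the acid-labile subunit, had 73.6, 78.2 and 84.5 CPM in B6. In BALB/c it had 77.7, 64.8 and 64.4 CPM. BALB/c replicate 1 lay within the B6 range. Igfbp3 had a log2 fold of -0.19 ± 0.12 (SE), between -0.28 and -0.14 with 1 library left out, and was not called. Igfbp7 encodes a secreted protein of vessel walls that binds IGFs weakly. Its values were 2330, 2046 and 2116 CPM in B6 and 2143, 2165 and 2232 CPM in BALB/c. The BALB/c values lay inside the B6 range, and the log2 fold was 0.01 ± 0.09 (SE).

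The last exon of Igfbp7 (chromosome 5, 77349240 to 77408041, minus strand) meets that of Polr2b, an RNA polymerase II subunit gene on the opposite strand. Polr2b reads came to between 70.5% and 72.7% of the Igfbp7 reads in every library, and the mean of Polr2b was 1539 ± 109 CPM for B6 and 1580 ± 35.9 CPM for BALB/c (SD, n = 3 each). Reads of the genes where they overlap cannot be told apart without strand. The log2 fold of Polr2b was 0.04 ± 0.09 (SE, limma).

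Igfbp2, a binding protein gene expressed at high levels in the fetus, was low and uneven. B6 replicates 1, 2 and 3 had 46, 38 and 1 reads, or 5.06, 3.83 and 0.112 CPM. BALB/c replicates 1, 2 and 3 had 4, 1 and 13 reads, or 0.387, 0.118 and 1.30 CPM. A pair of B6 libraries lay above the rest, and the third held no more reads than the lowest BALB/c library. Its log2 fold of -1.06 ± 0.52 (SE) was not called. Without B6 replicate 3 it was -1.82 and was called, so 1 library decides it. Igfbp6, whose protein prefers IGF2 over IGF1, had 3, 13 and 2 reads in B6 and 10, 0 and 13 reads in BALB/c. Igfbp6 lay below the filter, and the size of difference that could be seen at this depth was not tested.

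The binding protein genes of mice lie partly in pairs, which the choice by symbol did not use. Igfbp2 and Igfbp5 face each other on chromosome 1 with 5.46 kb between their ends (72824503 to 72852474 on the plus strand, and 72857932 to 72874884 on the minus strand). Their log2 folds were -1.06 ± 0.52 and 0.32 ± 0.11 (SE). Igfbp3 faces Igfbp1 on chromosome 11, with Igfbp1 at 7197782 to 7202546 on the plus strand and 3.54 kb between their ends. Igfbp1 is no member but completes this pair. Its log2 fold was 1.28 ± 0.23 (SE), beside -0.19 ± 0.12 for Igfbp3. Among these genes only Igfbp1 was called, so nothing is read from the signs within the pairs.

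Igfbp1, whose transcription insulin represses through FOXO factors, rose in BALB/c. Its libraries had 8.92, 21.4 and 11.5 CPM in B6 replicates 1, 2 and 3 and 32.6, 32.4 and 34.2 CPM in the BALB/c replicates. The strains did not overlap, and B6 replicate 2 was well above the other B6 libraries. The BALB/c mean was 2.37 times the B6 mean (limma adjusted p = 6.42e-04), with an adjusted p of up to 0.0115 without any 1 library. A variance prior that did not follow the level ended the call. Its window is shown because it holds the insulin response element on which FOXO factors act. Capitals mark CAAAACAA, searched on both strands and found in 2.2% of all windows.
Igfbp1 (chr11:7197537-7197786, plus strand): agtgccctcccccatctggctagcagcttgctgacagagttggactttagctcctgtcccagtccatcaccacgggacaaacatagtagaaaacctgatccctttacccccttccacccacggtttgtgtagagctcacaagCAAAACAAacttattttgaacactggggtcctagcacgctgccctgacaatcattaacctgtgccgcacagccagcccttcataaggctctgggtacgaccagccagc
The window holds no GC box, CCAAT or TATAAA match.

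Around the members, 114 pathway genes in 5 lists by role were examined, of which 97 were tested. Of these, 5 rose and 2 fell in BALB/c, which is 7.22% called, beside 9.09% over all genes tested. Their median log2 fold was -0.01, beside 0.00 over all genes. The counts were 2 rises and 0 falls without BALB/c replicate 1, and 4 rises and 0 falls with replicate numbers as a block. Without B6 replicate 1 they were 4 and 0.

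**Figure D3:**
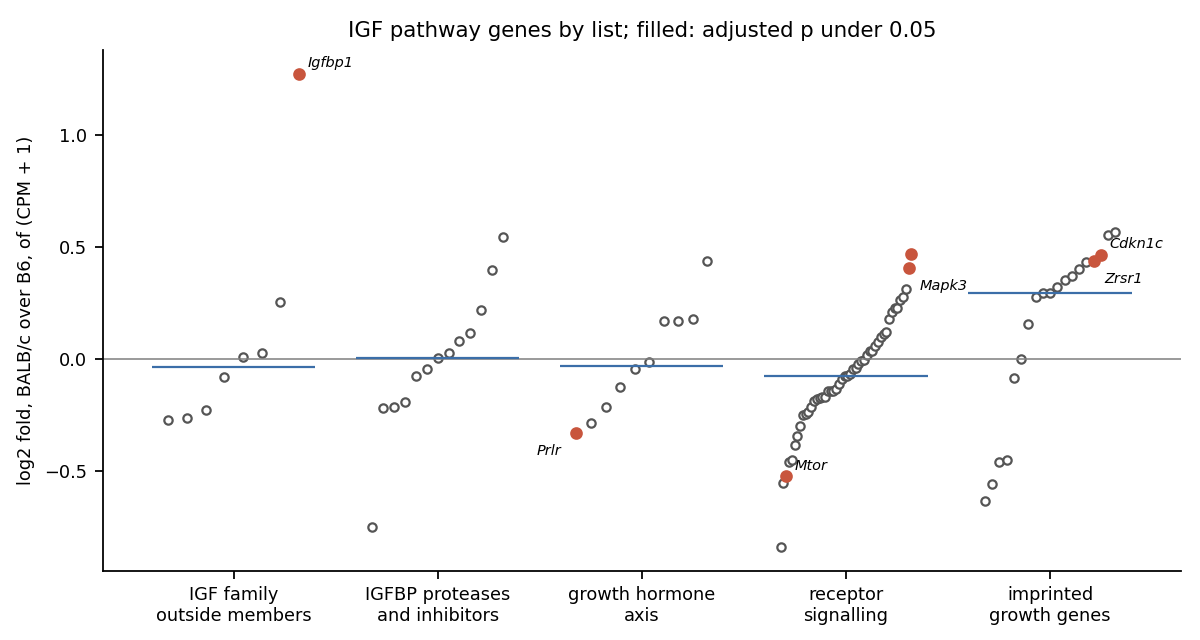
Log2 fold of BALB/c over B6 (vertical axis, CPM + 1) for each tested gene of the 5 pathway lists, sorted within a list; filled points are called, not all with their name, and blue lines are list medians. Igfbp1 stands at 1.28, while most genes of receptor signalling lie near 0 around a median of -0.08.

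Of 8 tested IGF family genes outside the members, 1 rose, Igfbp1, and 0 fell, with a median log2 fold of -0.03. The insulin receptor gene Insr had 0.26 (adjusted p = 0.332). Igfals encodes the acid-labile subunit that joins IGF1 and IGFBP3 in the circulating complex and had -0.08 (0.867). Insrr, an insulin receptor relative, and Igf2bp2, which encodes a binding protein of Igf2 mRNA, had -0.27 (0.747) and -0.26 (0.578). Values in parentheses here and below are limma adjusted p.

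Of 13 tested proteases of IGF binding proteins and their inhibitors, limma called 0. An unadjusted p below 0.05 was found for 1, and limma-voom on recovered reads called 0. The median log2 fold was 0.00. The plasminogen activator gene Plau had -0.22 (0.218). The stanniocalcin genes Stc1 and Stc2, whose proteins inhibit PAPP-A, had 0.40 (0.270) and -0.75 (0.236). The metalloprotease gene Adamts1 had -0.21 (0.351).

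Of 10 genes of the growth hormone axis, 0 rose and 1 fell, and the median was -0.03. The latter was the prolactin receptor gene Prlr, whose B6 mean was 378.2 ± 44.4 CPM and whose BALB/c mean was 300.3 ± 33.6 CPM (SD, n = 3 each), with overlapping ranges. Its log2 fold was -0.33 ± 0.10 (SE, limma adjusted p = 0.0478), and the call ended in 11 of 16 alternatives, among them total read scaling. The growth hormone receptor gene Ghr, through which growth hormone induces Igf1, had 477, 398 and 471 CPM in B6 and 379, 374 and 346 CPM in BALB/c. Its strains did not overlap, and its log2 fold was -0.29 ± 0.09 (SE, limma adjusted p = 0.0571). The feedback inhibitors Socs1 and Cish had 0.44 (0.612) and 0.17 (0.646).

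Of 48 tested genes that act downstream of the IGF1 and insulin receptors, 2 rose and 1 fell, 6.25% of them, with a median of -0.08. Mapk3, the gene of the kinase ERK1, rose by 0.41 (0.0433), and its call ended in 8 of 16 alternatives. Mtor, the kinase gene of the growth-regulating mTOR complexes, had -0.52 (0.0450), and its call ended in 10 of 16.

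Of 19 tested imprinted growth genes, 2 rose and 0 fell, 10.5% of them, and the median log2 fold was 0.30. Cdkn1c, a maternally expressed inhibitor of the cell cycle, rose by 0.47 ± 0.11 (SE, limma adjusted p = 0.00780), with a B6 mean of 106.7 ± 5.79 CPM and a BALB/c mean of 148.5 ± 18.9 CPM (SD, n = 3 each). The call ended without BALB/c replicate 2 (0.0732) and with a variance prior that did not follow the level. Podocytes express Cdkn1c. The summed level of 6 podocyte markers was between 350.3 and 400.3 CPM in B6 and between 502.9 and 537.0 CPM in BALB/c. Of these markers 1 was called higher and 1 lower in BALB/c. The part of this in Cdkn1c was not tested. Zrsr1, which overlaps Commd1, rose by 0.44 (0.0130). That call ended without replicate 1 of either strain (up to 0.102) and with a variance prior that did not follow the level. Kcnq1ot1 and Grb10, whose protein restrains the receptors of insulin and IGF1, had 0.37 (0.151) and -0.46 (0.169). H19, the maternally expressed RNA beside Igf2, was below the filter, with 7, 21 and 4 reads in B6 and 3, 12 and 0 reads in BALB/c.

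Within 1 Mb of Igf2 on chromosome 7 the tables hold 44 other genes, of which 18 were tested, and 1 rose and 2 fell. That is 16.7% called, beside 9.09% over all genes tested. Igf2os overlaps Igf2 itself and passed the filter only through the B6 libraries, so nothing is read from this share. The others called were Cdkn1c and Slc22a18, 791.5 and 806.9 kb away. Slc22a18, a maternally expressed transporter gene, had -0.43 ± 0.10 (SE, limma adjusted p = 0.00826), not called once BALB/c replicate 2 was left out (0.0815) or with no trend in the variance prior. Tssc4 had 0.42 (0.0698). Of the tested genes that do not overlap Igf2, the closest were Mrpl23 at -0.09, Lsp1 at -0.20 and Ctsd, the gene of the lysosomal protease cathepsin D, at -0.07, and none of these was called. Mrpl23 shares 98.0% of its 3′ end words with other transcripts. The other tested genes of the neighbourhood, Cd81, R74862, Kcnq1ot1, Kcnq1, Phlda2, Nap1l4, Cars, Dusp8, Mob2, Brsk2 and Tollip, had log2 folds between -0.33 and 0.37 and were not called. Ins2, the insulin gene next to Igf2, had 0 reads in 5 libraries and 4 in B6 replicate 3.

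**Figure D4:**
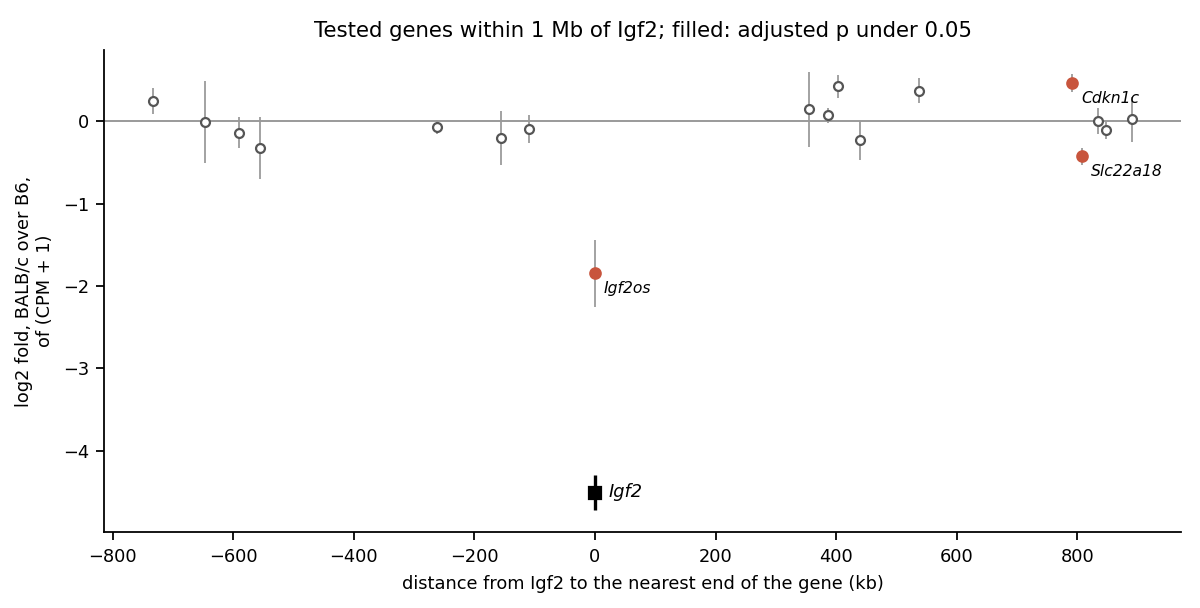
Log2 fold of BALB/c over B6 (vertical axis, CPM + 1, bars ± SE) against the distance in kb from Igf2 (0) for the tested genes within 1 Mb; filled points are called, and Igf2 is the black square. Igf2 stands at -4.51, and the genes that do not overlap it lie between -0.43 and 0.47. Igf2os, which overlaps Igf2, is drawn at -1.85. It had 0 reads in each BALB/c library, so its fold depends on the pseudocount and nothing is read from it.

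Levels of marker genes were set beside the members, since a whole kidney holds many cell types and fewer cells of a type cannot be told apart from less RNA per cell in such samples. The 6 distal tubule markers summed to between 2582 and 3039 CPM in B6 and between 2202 and 2332 CPM in BALB/c, without overlap, with 3 called lower and 1 higher. The summed level of 10 endothelial markers was between 484.8 and 520.6 CPM in B6 and between 435.7 and 439.2 CPM in BALB/c, with 0 of the 10 called. The 13 markers of fibroblasts, mesangium and smooth muscle summed to between 571.9 and 715.2 CPM in B6 and between 500.7 and 596.5 CPM in BALB/c, with 1 higher and 2 lower. These cells are known sources of Igfbp4, Igfbp5 and Igfbp7. The 9 markers of macrophages and other leukocytes summed to between 108.5 and 127.9 CPM in B6 and between 161.7 and 181.1 CPM in BALB/c, with 2 of 7 tested higher. The part of cell makeup in the folds of the members was not tested.

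Tissue carried over at dissection was looked for with the same lists. Of 8 adrenal cortex markers, 6, among them Cyp11a1, Cyp11b1 and Nr5a1, had at most 3 reads in any library, and the sum of all 8 was at most 6.25 CPM. Of 6 pancreatic islet markers, 5 had at most 3 reads in any library. The 6 hepatocyte markers summed to between 136.2 and 150.4 CPM in B6 and between 93.4 and 136.4 CPM in BALB/c, with 1 of 6 called lower. The 8 adipocyte markers summed to between 108.9 and 191.3 CPM in B6 and between 172.2 and 207.7 CPM in BALB/c, with 1 of 2 tested called higher. The part of these tissues in Igf2 was not tested beyond these values.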

How the data were processed

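RNA of 6 kidneys (3 B6, 3 BALB/c) was sequenced from the 3′ end. The submitters' processing notes name Bowtie2, bedtools and the build mm10, a B6 genome, for both strains. They give no versions, and annotation, strand and treatment of multiply aligned reads are likewise unstated in the sources used here. How many BALB/c reads were lost against mm10 was not tested. The authors deposited log2 values with 3 decimals, 1 per gene row. Raised from log2 and lowered by 1, they sum to nearly the CPM total in each library. Low values (at most 20 reads) were all, 100%, whole reads to within 0.1 read, so the deposited unit is log2(CPM + 1), scaled by a further factor of 0.980 to 1.04 per library.

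The deposited log2 values were tested with limma (version 3.58.1, under R 4.3.3), two-sided, with strain as the sole term and a variance prior that follows the level (prior degrees of freedom 18.4, residual 4). The p-values rest on the spread between 3 mice per strain, combined through this prior with the spread of other genes of similar level. In the main fit the prior had the larger weight. Alternatives changed scaling, pseudocount, filter, variance prior and model (limma-voom, replicate block) or left out 1 library. The design had assumed that counts might be found; the files hold log2 values, so limma was the test. Members and lists were chosen with earlier results of these data known. The genes named are all members, all called pathway genes, the smallest p of each list up to 4 genes where fewer were called, all tested genes within 1 Mb of Igf2, and Insr, Ghr and Igfals in any case. Some genes that this rule names are counted but not reported here. H19, Ins2 and Polr2b were added after their values were seen.

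Positions come from GENCODE M21 (GRCm38), the assembly that mm10 names, and promoter windows from RefSeq (GRCm38.p6). Words of 50 bases, every 5 bases over the last 300 of the longest transcript, measured shared 3′ ends. All 10 members matched both. Depth was similar in all libraries, and with 1 read worth about 0.1 CPM, levels near 1 CPM rest on about 10 reads.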

Additional observations from a re-analysis of the deposited data

How the results depend on the processing

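In 16 alternatives, each called member kept its sign, which describes the same contrast that chose the members. Over all genes, 1211 were called, 493 with no trend in the variance prior, and between 797 and 1138 with 1 library left out (797 without BALB/c replicate 1, 806 without B6 replicate 1). With total read scaling 48.4% of the calls were lower in BALB/c, against 54.2%. Pathway genes called higher numbered 5, but 0 with no trend and between 2 and 4 with 1 library left out. Pathway genes called lower numbered 2, but 0 with total read scaling, a pseudocount of 0.25 CPM, no filter beyond 1 read, limma-voom on recovered reads or no trend, 1 with upper quartile scaling, and between 0 and 3 with 1 library left out. With the replicate block 977 genes, 4 higher and 0 lower pathway genes were called. Same-numbered libraries did not deviate together (correlations between -0.084 and 0.012). With 3 libraries per strain this cannot tell whether mice of the same number were handled together. The cause of these changes was not tested.

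Uncalled genes near 0 changed sign. Phlda2 (0.0013) had -0.0001 and Brsk2 (-0.007) had 0.055 with a pseudocount of 5 CPM, and Brsk2 had 0.011 with total read scaling. With 1 library left out, log2 folds ranged from -0.0007 to 0.41 for Cish, -0.28 to 0.091 for Igfals, -0.15 to 0.13 for Phlda2, -0.63 to 0.48 for Brsk2, -0.47 to 0.0045 for Lsp1, -0.19 to 0.0028 for Mrpl23, -0.33 to 0.53 for R74862 and -0.13 to 0.18 for Cars. Scalings moved the median fold of all genes by at most 0.022. Depth limits Igfbp2 and Igfbp6, with at most 46 and 13 reads in a library.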
